A study of Mus musculus with 6 samples.

Results

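The nuclear receptor superfamily was examined in RNA from the suprachiasmatic nucleus (SCN), the hypothalamic nucleus that holds the central circadian clock of mammals. The members were chosen by name: all superfamily genes on a list that left out the REV-ERB, ROR, thyroid hormone and NR4A receptors, 38 genes in all, and each of the 38 had a row in at least 1 of the deposited tables, which together list 17645 genes. The rule uses gene names only. They comprise 13 genes of subfamily NR1, 12 of NR2, 8 of NR3 and 5 of NR5, NR6 and NR0.

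The SCN was taken from frozen coronal sections of female C57BL/6 mice killed in the dark at zeitgeber time 12 to 14 h, that is, around the start of the night. RNA of 2 SCN was pooled for each library, and whether those came from separate animals, or the pools from separate litters, is not given, so a p here speaks only of the spread among these 6 libraries, part of which may be technical. The 3 libraries labelled V (replicates 2, 3 and 4) and the 3 labelled r1r2V (replicates 1, 4 and 5) were read as the control and as the knockout of REV-ERBα and REV-ERBβ (genes Nr1d1 and Nr1d2) in GABAergic neurons, the genotype named in the title of the series. The labels do not spell out either short name, the Cre driver, the floxed alleles, the exons removed, the genotype of the control or the age of the mice, and cells outside GABAergic neurons keep both genes by that design.

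Nuclear receptors are transcription factors that bind DNA through a domain of zinc fingers and, in most cases, a small lipophilic ligand: steroids, retinoids, fatty acids, oxysterols or vitamin D. Many of the nonsteroid receptors pair with a retinoid X receptor on repeats of the hexamer AGGTCA, whereas steroid receptors wait on heat shock protein chaperones and bind as pairs of the same receptor. REV-ERBα and REV-ERBβ belong to the same superfamily, lack the helix that recruits coactivators and repress through the corepressor NCoR1 and the deacetylase HDAC3. In the hypothalamus, nuclear receptors carry information on hormones and nutrients to neurons, and some (COUP-TFII, SF-1, Tailless) are known from the development of its nuclei.

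Total expected counts ran from 15729603 to 17780928 per library. Values below are CPM (counts scaled to a common library size) where libraries are compared for a gene, and the authors' FPKM (fragments scaled by transcript length and library size) where genes are compared with each other. Nr1d1 went against the label: the V libraries averaged 58.8 ± 3.27 CPM (SD, n = 3) and the r1r2V libraries 167 ± 25.7 CPM (fitted log2 difference 1.504, SE 0.11, adjusted p = 8.24e-05, edgeR). For Nr1d2 the averages were 175 ± 6.01 and 242 ± 28.6 CPM (log2 difference 0.47, SE 0.084, adjusted p = 0.0553). Gene totals cannot show a deletion of some exons, so "the libraries labelled r1r2V" is what every direction below refers to. All 13 SCN markers (Avp, Vip, Six6, Lhx1 and others) were detected in all 6 libraries, with a summed level of 811 to 1124 CPM.

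A pair of libraries stood apart by genes of neighbouring tissue. In V replicate 3 the 7 pituitary markers summed to 898 CPM, with growth hormone (Gh) at 454 CPM and prolactin (Prl) at 423 CPM, whereas the sum was 0.525 to 1.34 CPM in the other libraries. Of the 7 pituitary markers only Lhb was above 0 in every library, and Gh was at 0 in V replicate 2 and in all 3 libraries labelled r1r2V. In r1r2V replicate 5 the lateral hypothalamic gene Pmch was at 581 CPM, and 7 markers of meningeal fibroblasts summed to 207 CPM against 84.7 to 121 CPM. Vip was at 11.4 CPM there against 50.5 to 85.8 CPM in the others, but SCN markers did not share a direction. Avp (384 CPM) and Calb2 (518 CPM) were highest in that library, as was the sum of the 13 SCN markers (1124 CPM). Grp, Nms, Prok2, Lhx1, Vipr2 and Rorb were, like Vip, lowest in it, and the other SCN markers lay between. In tissue of many cell types, fewer cells of a type and less RNA per cell cannot be told apart.

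None of the 38 nuclear receptor genes on the list passed the test of V against r1r2V. Of the 38 genes, 29 passed the count filter and were tested, and 0 of the 29 passed an adjusted p of 0.05 with edgeR's quasi-likelihood test and Benjamini-Hochberg adjustment over all genes, against 0.416% of the 14438 genes tested (43 higher, 0.298%, and 17 lower, 0.118%). The smallest adjusted p among the receptors was 0.606, for Esrra. DESeq2 also called 0 of them, with a background of 0.59% over 17630 genes, and with V replicate 3 and r1r2V replicate 5 both left out edgeR again called 0. At an unadjusted p under 0.05 there were 4 receptors, 1 higher in r1r2V (Nr6a1) and 3 lower (Esr2, Esrra and Esrrb), beside a background of 7.58% of all genes tested (3.95% higher, 3.63% lower). The groups did not overlap for 2 receptors that were higher (Nr1h3, Nr6a1) and 4 that were lower (Rxrb, Esr2, Esrra, Esrrb), beside a background of 14.5% (6.87% higher, 7.63% lower).

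The fitted log2 fold changes of the 29 tested receptors ran from -0.70 for Esr2 to 0.49 for Nr0b1, and 13 were positive and 16 negative. Their median was -0.029, and that of all genes tested was 0.009, of which 52.5% were positive. For 16 of the 29, the 95% interval of the log2 fold change lay within 0.5 of 0 on either side. A difference of that size is therefore outside the interval for those genes, which were mostly the more abundant ones, such as the glucocorticoid receptor gene Nr3c1 and the retinoid X and COUP-TF receptor genes.

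**Figure D1:**
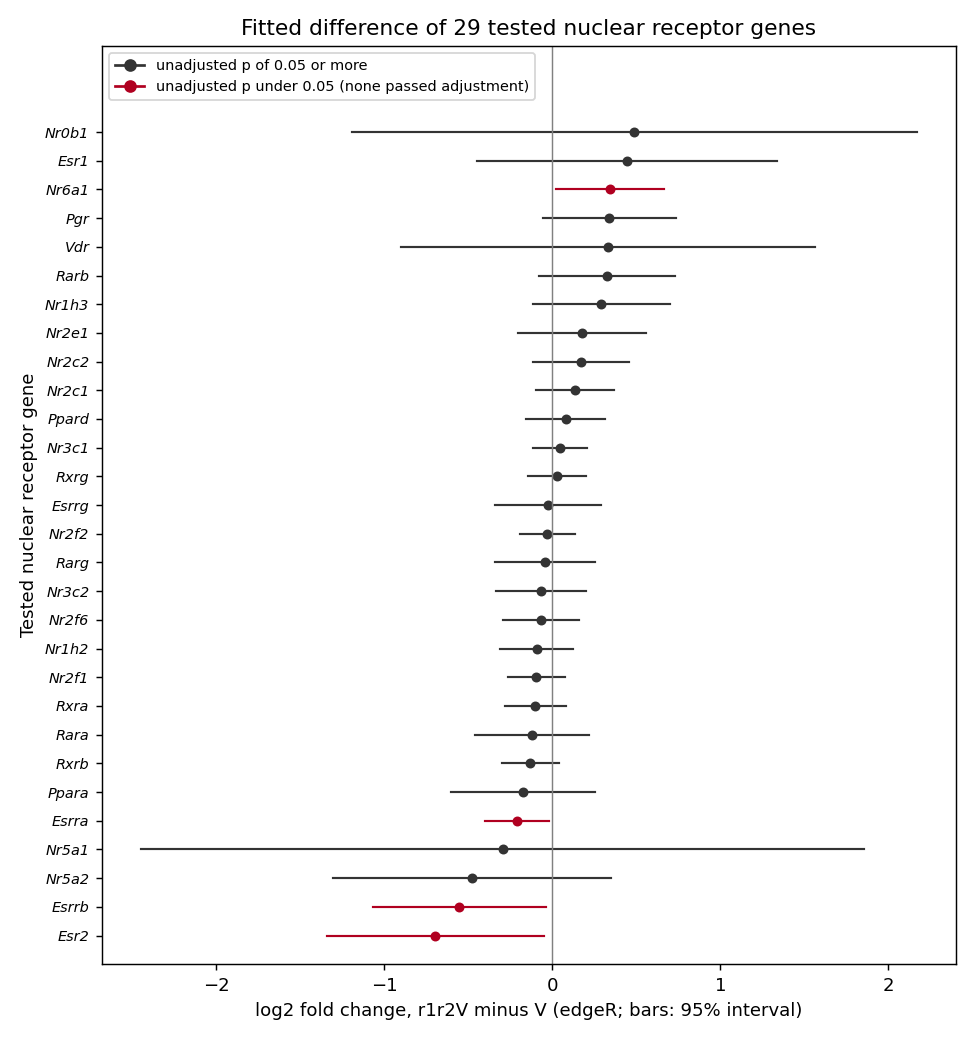
Fitted log2 fold change (r1r2V minus V, x axis) of the 29 tested nuclear receptor genes (y axis), with 95% intervals from edgeR. Genes with an unadjusted p under 0.05 are red, and the intervals are widest for Nr5a1 (-2.45 to 1.86) and Nr0b1 (-1.19 to 2.17).

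The level of the receptors spanned from 25.6 FPKM for Rxrb to Nr0b2 and Nr2e3, which no V library lists and which were taken as 0 there. In V, 9 of the 38 had a mean of at least 10 FPKM, 14 lay between 1 and 10 FPKM and 15 lay under 1 FPKM, where the median over all genes listed was 6.09 FPKM. The 9 most abundant were Rxrb, Nr2f1, Nr2f2, Nr3c1, Nr1h2, Rxra, Esrra, Rxrg and Nr2f6, down to 14.4 FPKM. After them came a gap to Esr1 at 6.94 ± 1.48 FPKM (SD, n = 3). Along this order the V ranges of neighbouring genes overlapped at most steps, and they separated below Rxrb, Nr2f2, Nr1h2, Nr2f6, Esr1, Nr2c1, Nr1h3, Nr6a1 and Esrrb.

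**Figure D2:**
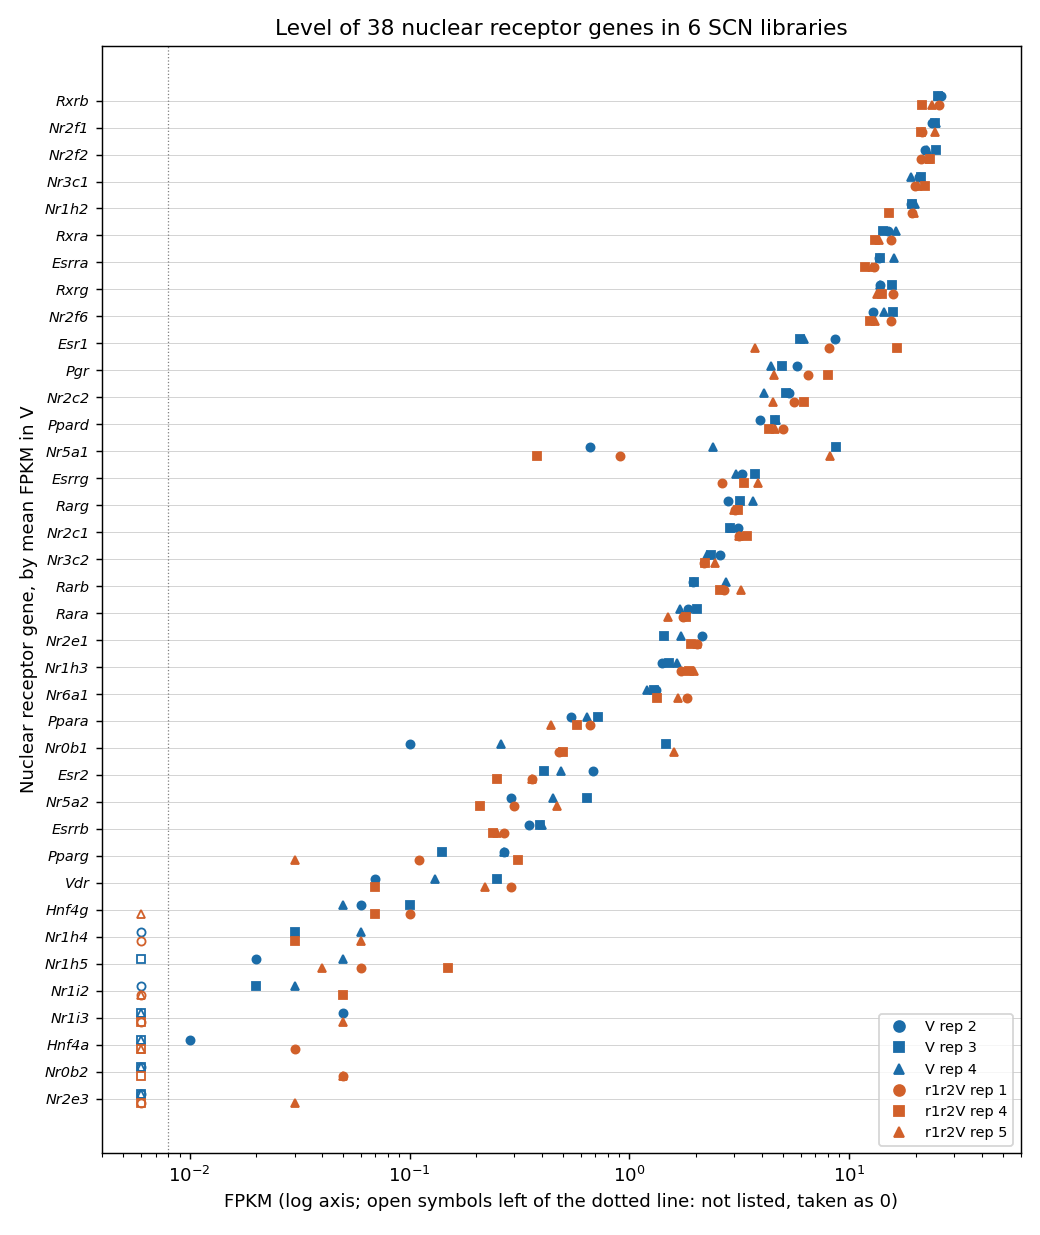
FPKM (x axis, log scale) of the 38 nuclear receptor genes (y axis, ordered by mean FPKM in V), with 1 symbol per library, blue for V and orange for r1r2V. Most genes have their 6 symbols close together, whereas Nr5a1 and Nr0b1 are spread along the axis in both groups and Esr1 in r1r2V.

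By family, the COUP-TF receptors made up 28.1% ± 0.62 (SD, n = 3) of the summed FPKM of the 38 genes in V, and the retinoid X receptors 25.1% ± 0.75. The glucocorticoid, mineralocorticoid and progesterone receptors made up 12.6% ± 0.88, the oxysterol and bile acid receptors 9.53% ± 0.41 and the estrogen-related receptors 8.28% ± 0.59. The NR2 subfamily as a whole held 57.6% ± 0.60 in V and 56.2% ± 1.63 in r1r2V. Summed over all 38 genes, the level was 219.8 ± 7.36 FPKM in V and 215.5 ± 1.64 FPKM in r1r2V, a difference smaller than the spread of the V libraries.

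The retinoid X receptors, obligate partners of many other family members, were all abundant. Rxrb was at 64.8, 62.8 and 62.6 CPM in V, against 61.8, 52.4 and 59.5 CPM in r1r2V. The r1r2V values all lay below those of V, but by little, and the fitted log2 fold change was -0.13 (SE 0.076, adjusted p = 0.698). Rxra averaged 75.8 ± 5.49 CPM in the V libraries and 70.6 ± 5.59 CPM in those labelled r1r2V (SD, n = 3), with groups that overlapped. Rxrg, the member of the family with the narrowest tissue range, was at 27.9 ± 1.21 and 28.5 ± 1.76 CPM (log2 fold change 0.03, 95% interval -0.14 to 0.20).

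The retinoic acid receptors were less abundant than their partners, between 1.86 and 3.21 FPKM in V. Rarb, itself a classic target of retinoic acid, was at 5.59, 5.69 and 8.06 CPM in V, against 7.54, 7.18 and 9.44 CPM in r1r2V. The groups overlapped through V replicate 4, and the log2 fold change was 0.33 (SE 0.18, adjusted p = 0.684). Of the exon bases of Rarb (GRCm38 chr14:16430839-17082331, minus strand), 52.9% are shared with Top2b on the opposite strand in the GENCODE annotation, and Top2b was at 124 ± 8.14 CPM in V and 126 ± 12.2 CPM in r1r2V. Whether counting used strand is not given, so reads of these genes cannot be told apart there. Rarb lies 1.12 Mb from Nr1d2 on the same chromosome, and Rara (chr11:98927800-98974942, plus strand) lies 152 kb from Nr1d1. Rara was at 5.70, 6.08 and 5.14 CPM in V, against 5.46, 5.52 and 4.61 CPM in r1r2V, with overlapping groups (log2 fold change -0.12, SE 0.15, adjusted p = 0.849). Rarg differed still less, with a log2 fold change of -0.04 (95% interval -0.34 to 0.25).

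Among the receptors for fatty acids and sterols, Nr1h2 (LXRβ, an oxysterol receptor) was the most abundant, at 37.1 ± 0.80 CPM in V and 34.8 ± 4.70 CPM in r1r2V (log2 fold change -0.09, SE 0.097, adjusted p = 0.818). Its paralog Nr1h3 (LXRα) was much lower and did not overlap between the groups. Nr1h3 was at 2.31, 2.54 and 2.73 CPM in V, against 2.79, 3.16 and 3.32 CPM in r1r2V. The lowest r1r2V library was close to the highest V library, and the log2 fold change of 0.29 (SE 0.18) had an adjusted p of 0.717. Ppard, the PPAR that is widespread in brain, was at 13.8 ± 1.17 and 14.5 ± 0.91 CPM, and Ppara, which drives fatty acid oxidation in liver, was at 4.51 ± 0.59 and 3.99 ± 0.77 CPM. Pparg, the adipocyte receptor, was listed in all 6 libraries at 0.0583 to 0.517 CPM and was not tested.

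The COUP-TF receptors Nr2f1 and Nr2f2, developmental regulators of forebrain regions, kept narrow ranges. Nr2f1 was at 44.3, 45.7 and 46.1 CPM in V, against 41.1, 39.9 and 46.5 CPM in r1r2V, and Nr2f2 was at 94.7 ± 5.32 and 92.8 ± 6.04 CPM. Their log2 fold changes were -0.10 (SE 0.076, adjusted p = 0.769) and -0.03 (SE 0.074, adjusted p = 0.933). For Nr2f6, at 30.4 ± 3.05 and 28.99 ± 3.08 CPM, 41.2% of the exon bases are shared with the antisense gene Ocel1, which was only at 1.64 ± 0.20 and 1.74 ± 0.26 CPM. The testicular receptors Nr2c1 and Nr2c2, repressors that bind AGGTCA repeats, had log2 fold changes of 0.14 (SE 0.10, adjusted p = 0.758) and 0.17 (SE 0.13, adjusted p = 0.755). Nr2c2 shares 43.6% of its exon bases with Mrps25, an antisense gene at 123 ± 1.58 CPM in V and 127 ± 7.71 CPM in r1r2V. Nr2e1, the Tailless receptor of neural stem cells and glia, was at 5.52 ± 1.14 CPM in V and 6.24 ± 0.19 CPM in r1r2V.

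The estrogen-related receptors, orphan receptors that drive genes of mitochondrial oxidation, included a pair of the 4 genes at an unadjusted p under 0.05. Esrra (chr19:6910977-6922048, minus strand) was at 29.7, 29.6 and 34.6 CPM in V, against 27.9, 25.7 and 27.6 CPM in r1r2V. All r1r2V values lay below all V values, and the fitted level was 1.16-fold lower (log2 fold change -0.21, SE 0.085, 95% interval -0.40 to -0.02, adjusted p = 0.606). Trmt112, on the opposite strand, overlaps 3.26% of the exon bases of Esrra and was at 71.9 ± 4.02 and 67.8 ± 4.98 CPM. Esrrb (chr12:86361117-86521628, plus strand) was at 1.47, 1.58 and 1.65 CPM in V, against 1.10, 1.03 and 1.05 CPM in r1r2V. Its SD within groups, 0.051 on the log2 scale, was the smallest of the 29 tested receptors, but it rested on 135 counts over the 6 libraries, and its log2 fold change of -0.55 (SE 0.23) had an adjusted p of 0.618. Esrrg, the neuronal member, was at 17.0 ± 1.73 and 16.7 ± 3.19 CPM, with groups that overlapped (log2 fold change -0.03, 95% interval -0.34 to 0.29).

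Of the steroid hormone receptors, Nr3c1 was the most abundant, at 129, 131 and 119 CPM in V, against 122, 139 and 130 CPM in r1r2V. The groups overlapped throughout, and the log2 fold change of 0.05 had a 95% interval of -0.11 to 0.21. Nr3c2, the mineralocorticoid receptor, was at 9.56 ± 0.68 and 9.13 ± 0.69 CPM (log2 fold change -0.07, SE 0.12, adjusted p = 0.901).

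Of the estrogen receptors, Esr1 was at 6.94 FPKM and Esr2 at 0.527 FPKM on average in V. Esr2, which encodes estrogen receptor β, was at 2.201, 1.30 and 1.59 CPM in V, against 1.16, 0.804 and 1.17 CPM in r1r2V. Every r1r2V library was below every V library, by a fitted 1.62-fold (log2 fold change -0.70, SE 0.29, 95% interval -1.34 to -0.05), which did not pass (adjusted p = 0.617). Only 141 counts over the 6 libraries stand behind it. Esr1, which encodes estrogen receptor α, was at 53.1, 36.3 and 38.0 CPM in V, against 49.0, 101 and 23.0 CPM in r1r2V. Both the highest and the lowest of the 6 values belonged to libraries labelled r1r2V, 4.40-fold apart, and the log2 fold change of 0.44 (SE 0.40, adjusted p = 0.792) became -0.24 (adjusted p = 0.909) without r1r2V replicate 4. The progesterone receptor gene Pgr, an estrogen target in the hypothalamus, was at 39.3, 33.4 and 29.8 CPM in V, against 43.6, 54.8 and 31.1 CPM in r1r2V. It was highest in the same library as Esr1, and its log2 fold change was 0.34 (SE 0.18, adjusted p = 0.683). Without r1r2V replicate 4 that became 0.13 (adjusted p = 0.909), and without r1r2V replicate 5 it became 0.52 with an adjusted p of 0.199, the lowest adjusted p of any of the receptors under any alternative run. The neuropeptide gene Gal, a marker of neighbouring hypothalamic neurons, ranked the 6 libraries in the same order as Esr1, at 96.1, 59.9 and 63.1 CPM in V, against 64.0, 99.0 and 21.0 CPM in r1r2V. The 18 markers of neighbouring hypothalamic neurons, all above 0 in every library, summed to 1819, 2100 and 1880 CPM in V and to 1491, 1238 and 2284 CPM in r1r2V. Their sum was thus lowest in the library where Esr1 was highest and highest where Esr1 was lowest. That was unlike Gal, which was picked after its values were seen. The highest sum rested on Pmch, which alone held 581 of the 2284 CPM in r1r2V replicate 5. Without Pmch, the sum of that library would lie below those of all V libraries. Single markers went both ways. Tac2, like Gal, was highest in r1r2V replicate 4 (52.2 CPM) and lowest in r1r2V replicate 5 (31.7 CPM). The reverse held for Pmch (1.67 and 581 CPM, in that order) and Fezf1 (9.77 and 33.5 CPM), and the other markers did neither. The part of these markers in the Esr1 values was not tested.

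The promoter of Esr2 (GRCm38.p6 chr12:76177210-76177509, minus strand, RefSeq) is shown because Esr2 had the most negative fitted change of the receptors and its window holds an E-box, the hexamer CACGTG that clock activators bind. The windows of Esrra and Esrrb, also lower at an unadjusted edgeR p under 0.05, hold no E-box, whereas windows of Rara, Nr1i3 and Nr0b2 do. A part of the E-box in the Esr2 values was not tested. Like each window, that of Esr2 is printed 5′ to 3′ from 250 bases before to 50 bases after the start site, with the E-box in capitals.
Esr2: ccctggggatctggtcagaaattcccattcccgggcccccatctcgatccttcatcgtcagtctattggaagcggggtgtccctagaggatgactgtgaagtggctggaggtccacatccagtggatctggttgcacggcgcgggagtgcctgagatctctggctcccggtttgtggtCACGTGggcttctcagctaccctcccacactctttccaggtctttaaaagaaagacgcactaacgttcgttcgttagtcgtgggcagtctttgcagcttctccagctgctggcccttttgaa

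Nr5a1 and Nr0b1 varied more within each label than between the labels. Nr5a1 (chr2:38692656-38714542, minus strand) encodes steroidogenic factor 1, which in the brain is known from neurons of the ventromedial hypothalamus and, outside it, from pituitary gonadotropes and steroid-producing organs. It was at 1.92, 24.6 and 6.79 CPM in V, against 2.55, 1.09 and 23.7 CPM in r1r2V. A library of each label was high, V replicate 3 and r1r2V replicate 5, and the extremes were 22.6-fold apart. The log2 fold change of -0.30 (SE 0.97) accordingly had a 95% interval of -2.45 to 1.86, and it became 1.08 without V replicate 3, -2.62 without r1r2V replicate 5 and -1.24 without both (edgeR adjusted p = 0.878, 0.374 and 0.628).

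Nr0b1 (chrX:86191775-86195947, plus strand) encodes DAX1, a receptor without a DNA-binding domain that inhibits steroidogenic factor 1. It was at 0.169, 2.48 and 0.444 CPM in V, against 0.812, 0.862 and 2.74 CPM in r1r2V, with 3 counts in V replicate 2. The same 2 libraries were the high ones, and the log2 fold change of 0.49 (SE 0.75) became 2.26 without V replicate 3, -0.32 without r1r2V replicate 5 and 1.46 without both (edgeR adjusted p = 0.69, 0.907 and 0.592). Nr5a2, the paralog of Nr5a1 known as liver receptor homolog 1, ranked the 6 libraries in the same order as Nr5a1, at 1.02, 2.25 and 1.59 CPM in V, against 1.05, 0.747 and 1.69 CPM in r1r2V (log2 fold change -0.48, SE 0.37, adjusted p = 0.762). That change became -0.155 without V replicate 3 and -0.854 without r1r2V replicate 5 (edgeR adjusted p = 0.958 and 0.46). Nr5a2 rested on 143 counts over the 6 libraries. V replicate 2 and r1r2V replicate 1 had 18 counts each, so their order came from library scaling alone.

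Fezf1, a transcription factor of the ventromedial hypothalamus, was at 15.0, 29.9 and 23.6 CPM in V, against 15.1, 9.77 and 33.5 CPM in r1r2V, highest in the same 2 libraries as Nr5a1 and Nr0b1. Pmch was also highest there, at 213 CPM in V replicate 3 and 581 CPM in r1r2V replicate 5, against 1.67 to 23.3 CPM in the others. Fezf1 and Pmch were picked from the 18 markers of neighbouring hypothalamic neurons after their values were seen. Sst, Pomc, Hcrt and Cartpt were also highest in those 2 libraries. Kiss1 (3.61 and 0.175 CPM) and Gal (59.9 and 21.0 CPM) were lowest there, and the remaining markers did neither. The 7 pituitary markers summed to 898 CPM in V replicate 3 and to 0.525 CPM in r1r2V replicate 5, where Nr5a1 was at 23.7 CPM. In r1r2V replicate 5, Lhb was at 0.408 CPM, Tshb at 0.117 CPM and the other 5 at 0, a count that allows up to 0.175 CPM. The part of neighbouring tissue in the values of these receptors was not tested.

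**Figure D3:**
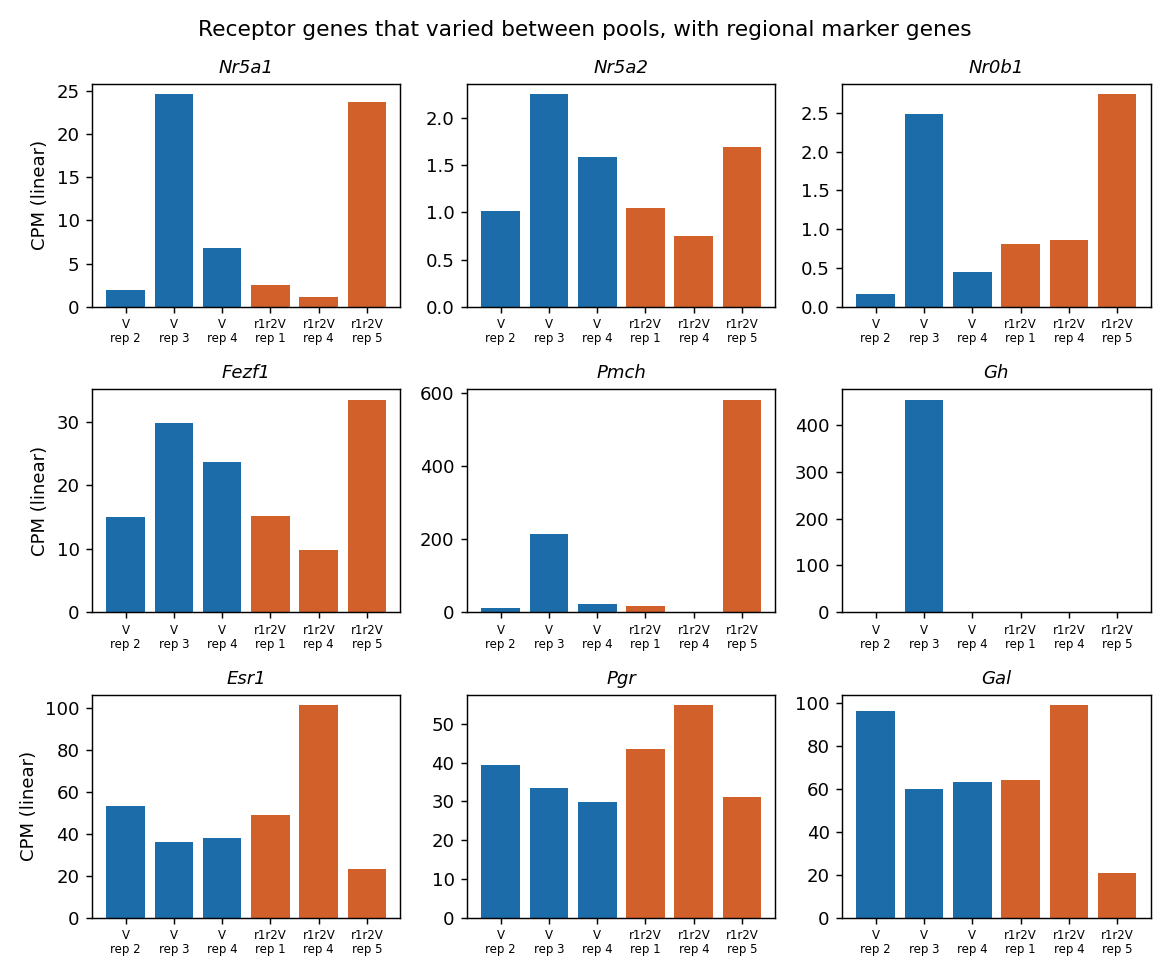
CPM (y axis, linear and starting at 0 in each panel) of 5 nuclear receptor genes and 4 regional marker genes in the 3 V (blue) and 3 r1r2V (orange) libraries. Nr5a1, Nr0b1, Fezf1 and Pmch have their 2 highest bars in V replicate 3 and r1r2V replicate 5, Gh has a visible bar in V replicate 3 alone, and Esr1, Pgr and Gal are highest in r1r2V replicate 4.

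The promoter of Nr0b1 (GRCm38.p6 chrX:86191525-86191824, plus strand, RefSeq) is shown because an AGGTCA hexamer, the core that steroidogenic factor 1 and most nonsteroid receptors bind, starts 126 bases before its start site; the hexamer is in capitals.
Nr0b1: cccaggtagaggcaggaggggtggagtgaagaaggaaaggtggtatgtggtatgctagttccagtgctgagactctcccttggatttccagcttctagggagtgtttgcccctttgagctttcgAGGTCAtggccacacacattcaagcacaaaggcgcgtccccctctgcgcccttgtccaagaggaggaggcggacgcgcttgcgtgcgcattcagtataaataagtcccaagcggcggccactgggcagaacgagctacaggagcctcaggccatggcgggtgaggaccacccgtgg

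Nr6a1 (chr2:38723369-38926461, minus strand) encodes germ cell nuclear factor and lies 8.8 kb from Nr5a1. It was at 7.79, 7.49 and 6.98 CPM in V, against 10.6, 7.81 and 9.91 CPM in r1r2V. All r1r2V values were above all V values, r1r2V replicate 4 only just, and the log2 fold change of 0.34 (SE 0.14, 95% interval 0.02 to 0.67) did not pass (adjusted p = 0.623). Of its RefSeq start sites, the one inside the gene (promoter window GRCm38.p6 chr2:38784466-38784765, minus strand) has the hexamer in its reverse complement TGACCT 91 and 45 bases before the start, in capitals.
Nr6a1: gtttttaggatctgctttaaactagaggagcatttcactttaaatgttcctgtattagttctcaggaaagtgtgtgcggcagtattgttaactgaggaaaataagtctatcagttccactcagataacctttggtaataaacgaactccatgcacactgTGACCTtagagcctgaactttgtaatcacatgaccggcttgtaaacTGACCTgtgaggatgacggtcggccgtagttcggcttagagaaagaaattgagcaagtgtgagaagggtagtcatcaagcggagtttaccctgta

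RefSeq promoter windows were found for 35 of the 38 receptors, 54 windows in all, and not for Nr3c1, Nr5a1 and Hnf4g. AGGTCA on either strand was in 10 of the 54 (18.5%), of 9 genes, and in 16.3% of all 32851 windows of the same length. With a T before it (TAGGTCA, which lies within the site that a REV-ERB monomer binds), it was in 0 of the 54 and in 2.61% of all windows. A direct repeat of AGGTCA spaced by 0 to 5 letters was in 0 of the 54 and in 0.0852% of all. CACGTG was in 5 of the 54 (9.26%), of 4 genes, and in 7.15% of all windows. These windows share letters where start sites of a gene lie close together, and a match is not evidence of binding.

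The spread between pools of a group placed some receptors among the most variable genes of the tissue. The SD within groups of log2(CPM + 0.5) was above 0.5 for 4 of the 29 tested receptors, Nr5a1 (1.88), Nr0b1 (0.95), Esr1 (0.78) and Vdr (0.55), and for 1.31% of all genes tested. The SD of Nr5a1 exceeded that of 99.97% of all genes tested, and the SD of Esr1 exceeded that of 99.7%. The median SD was 0.143 over the 29 receptors and 0.118 over all genes. Vdr, the vitamin D receptor gene, was at 0.282, 1.07 and 0.571 CPM in V, against 1.22, 0.287 and 0.933 CPM in r1r2V, from 75 counts in all, and low counts widen such an SD.

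**Figure D4:**
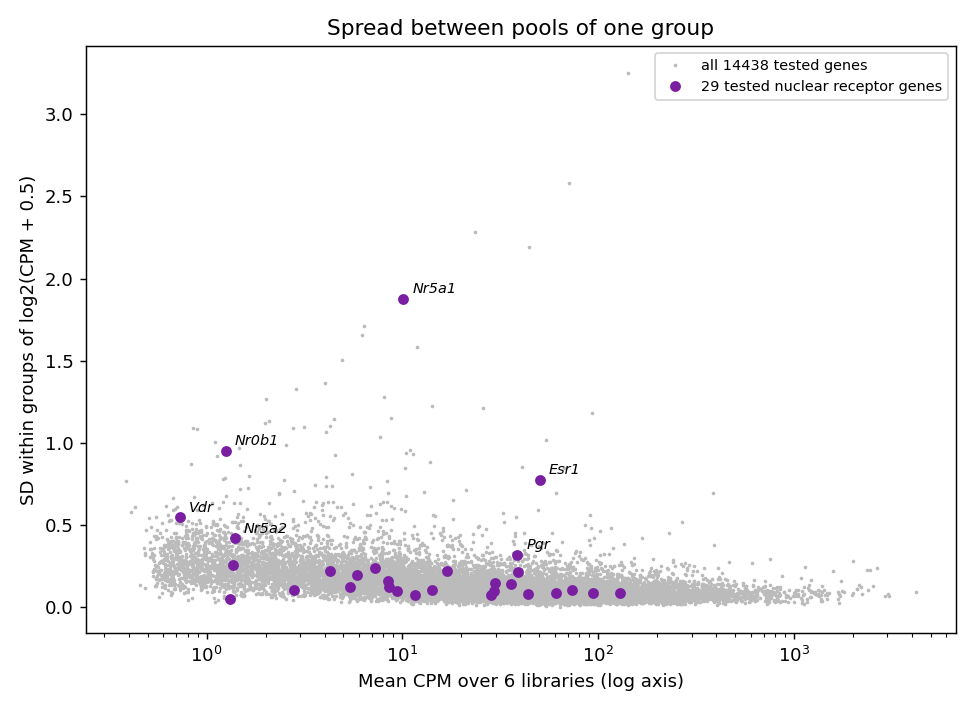
SD within groups of log2(CPM + 0.5) (y axis) against mean CPM over the 6 libraries (x axis, log scale) for all 14438 tested genes (grey) and the 29 tested nuclear receptor genes (purple; those above 0.3 are named). Nr5a1 at 1.88, Nr0b1 at 0.95 and Esr1 at 0.78 lie well above the bulk of genes of their level.

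The 9 receptors that were not tested had at most 34 counts over the 6 libraries and at most 9 in any of them. They are the receptors of liver, gut, fat and photoreceptors. The bile acid receptor gene Nr1h4 had 6 counts in all and its relative Nr1h5 had 15. The xenobiotic receptor genes Nr1i2 and Nr1i3 had 4 and 2.02 counts, Hnf4a had 3 and Hnf4g 26. The photoreceptor gene Nr2e3 had 1 count, and Nr0b2, the small heterodimer partner that bile acids induce in liver, had 2. A count of 0 allows up to 3 counts, 0.169 to 0.190 CPM in these libraries, so differences in these genes were not detectable at this depth.

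Partners and targets of the receptors were followed in 10 lists, of which 142 different genes were tested, the receptors Esrra, Nr1h3, Pgr and Rarb among them. None of the 142 passed in edgeR (0.416% of all genes did), 26 had an unadjusted p under 0.05 (7.58% of all genes), and DESeq2, which called 0.59% of all genes, called 2, Cdkn1a (adjusted p = 0.0386, and 0.0386 to 0.415 over all alternatives) and Aldh1a2 (adjusted p = 0.0392, and 0.0392 to 0.975 over all alternatives). The shares over all genes, 0.416% passed and 7.58% at an unadjusted edgeR p under 0.05, stand beside each list below as well. The genes named beyond the 2 most abundant of each list were chosen after their values were seen.

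Of the chaperones and immunophilins that hold steroid receptors ready for hormone, 0 of 14 passed (0.416% of all genes tested did). An unadjusted edgeR p under 0.05 was found for 7, all higher in r1r2V, beside 7.58% of all genes tested (3.95% higher). Of the 14, 12 were positive (52.5% of all genes tested), with a median log2 fold change of 0.17 against 0.009 for all genes. The constitutive chaperone Hspa8 was at 1407 ± 46.4 FPKM in V and 1583 ± 93.3 FPKM in r1r2V (log2 fold change 0.17, SE 0.066, adjusted p = 0.579), and Hsp90aa1 was at 805 ± 24.1 and 932 ± 81.4 FPKM (0.22, SE 0.074, adjusted p = 0.522). The cochaperones Stip1, which links HSP70 to HSP90, and St13 had log2 fold changes of 0.23 (SE 0.070, adjusted p = 0.421) and 0.23 (SE 0.067, adjusted p = 0.407).

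All 20 coactivators had a positive log2 fold change, as did 52.5% of all genes tested, but 0 of 20 passed and the median was 0.073. An unadjusted edgeR p under 0.05 was found for 2, Med1 and Ep300, beside 7.58% of all genes tested. The methyltransferase gene Prmt1 was at 112 ± 6.67 FPKM in V and 113 ± 5.60 FPKM in r1r2V, and Pnrc2 was at 42.9 ± 0.55 and 43.7 ± 4.18 FPKM. Among corepressors, 0 of 15 passed, 7 of 15 were positive and the median was -0.015. Ncor1, the corepressor that REV-ERBs and unliganded receptors share, was at 17.6 ± 1.59 and 20.02 ± 1.01 FPKM (log2 fold change 0.19, SE 0.082, adjusted p = 0.645), while the most abundant, Ctbp1 and Phb2, had log2 fold changes of -0.07 and -0.05 (adjusted p = 0.771 and 0.871).

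Genes of retinoid supply and handling had a median of 0.17, and 0 of 14 passed. An unadjusted edgeR p under 0.05 was found for 2, Aldh1a2 and Ttr, both higher, beside 7.58% of all genes tested (3.95% higher). Without r1r2V replicate 5 that median was 0.016. Aldh1a1 and Rdh11, enzymes that oxidise and reduce retinaldehyde, respectively, had the highest levels and log2 fold changes of 0.07 (SE 0.18) and 0.09 (SE 0.11; adjusted p = 0.939 and 0.831). Aldh1a2, which makes retinoic acid and is known from the meninges, was at 1.77, 2.93 and 1.93 FPKM in V and at 3.09, 3.89 and 5.95 FPKM in r1r2V. All r1r2V values were above all V values (log2 fold change 0.97, SE 0.27, edgeR adjusted p = 0.345). The highest was in r1r2V replicate 5, and the 7 meningeal markers, all above 0 in every library, summed to 87.4 to 121 CPM in V and 84.7 to 207 CPM in r1r2V; their part in the Aldh1a2 values was not tested. Ttr, also a marker of choroid plexus, was at 0.59, 0.6 and 0.39 FPKM in V, against 2.47, 2.2 and 0.31 FPKM in r1r2V. The groups overlapped through r1r2V replicate 5 (log2 fold change 1.635, SE 0.605, edgeR adjusted p = 0.577). The 6 choroid plexus markers summed to 30.6 to 40.7 CPM in V and 33.1 to 50.9 CPM in r1r2V, and their part in the Ttr values was not tested. Targets of retinoic acid had 0 of 11 passed, 0 at an unadjusted p under 0.05 and a median of 0.14, which was 0.028 without r1r2V replicate 5. The most abundant were Rarres2, at 80.8 ± 6.85 FPKM in V and 76.6 ± 0.21 FPKM in r1r2V, and Dhrs3, at 5.48 ± 0.16 and 6.13 ± 0.91 FPKM.

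Glucocorticoid targets had 0 of 16 passed and a median of 0.099. Of the 16, 8 had an unadjusted edgeR p under 0.05 (6 higher, 2 lower), beside 7.58% of all genes tested (3.95% higher, 3.63% lower). The metallothionein genes Mt1 and Mt2 were the most abundant, with log2 fold changes of -0.07 and 0.14 (SE 0.089 and 0.10; adjusted p = 0.863 and 0.754). Cdkn1a, the cell cycle inhibitor p21, had the smallest adjusted p of all list members. It was at 6.39, 6.69 and 6.86 FPKM in V and at 10.5, 8.62 and 9.76 FPKM in r1r2V, a clear gap (log2 fold change 0.54, SE 0.10, edgeR adjusted p = 0.0714), and it passed edgeR without r1r2V replicate 4 (adjusted p = 0.0472). Classic targets did not share a direction. Of the 8, the 6 higher were Cdkn1a, Zbtb16, Fkbp5, Per1, Sult1a1 and Plin4, and the 2 lower were Ddit4 and Nfkbia. Fkbp5 was at 7.84 ± 0.57 and 8.85 ± 0.43 FPKM, and Per1 at 13.3 ± 0.47 and 15.05 ± 1.11 FPKM (edgeR adjusted p = 0.633 and 0.5885). Zbtb16 was at 1.43 ± 0.54 and 2.30 ± 0.36 FPKM (log2 fold change 0.70, SE 0.23). Ddit4 was at 30.6 ± 2.57 and 24.9 ± 1.07 FPKM (-0.30, SE 0.078) and Nfkbia, the NF-κB inhibitor, at 25.3 ± 1.62 and 20.9 ± 2.02 FPKM (-0.27, SE 0.087). Adjusted p values of Zbtb16, Ddit4 and Nfkbia were 0.514, 0.299 and 0.475 (edgeR).

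For steroid and oxysterol metabolism, 0 of 16 passed and the median was 0.01. The most abundant were Hsd17b12, an enzyme of fatty acid elongation, with a log2 fold change of 0.01, and Cyp46a1, the neuronal cholesterol 24-hydroxylase, at 53.1 ± 1.30 FPKM in V and 46.8 ± 6.68 FPKM in r1r2V (-0.18, SE 0.095, adjusted p = 0.683). LXR targets had 0 of 12 passed and a median of -0.009, with Apoe at 1827 ± 52.0 and 1701 ± 184 FPKM and Scd2 at 393 ± 15.1 and 389 ± 34.3 FPKM. PPAR and ERR targets had 0 of 21 passed and a median of -0.011. Their most abundant genes, Fabp5 and Idh3a, had log2 fold changes of -0.01 and -0.03 (adjusted p = 0.978 and 0.934). Of hypothalamic targets of estrogen and progesterone, 0 of 12 passed and the median was 0.02. Oxt (oxytocin) was at 1895 ± 303 and 1426 ± 332 FPKM (-0.42, SE 0.16, adjusted p = 0.579), and Gal had a log2 fold change of -0.25 (SE 0.41).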

How the data were processed

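RNA-seq tables of 6 libraries were used. Per the file headers, the authors deposited an expected count and an FPKM per gene. The submitters' processing notes name RSEM 1.2.12 (which estimates expected counts), Bowtie2 2.2.5, HISAT2 2.0.4 and build mm10 among others; the role of each here, and strand use, were not stated in the sources at hand. Of the expected counts 9.89% were not whole, and all were rounded. A gene not listed in a library was taken as 0. Groups were taken from sample titles.

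Counts were filtered (filterByExpr, minimum count 10), scaled by TMM and tested in edgeR 4.0.16 (R 4.3.3) with the quasi-likelihood test, adjusted by Benjamini-Hochberg over all genes at 0.05; intervals are 95% from the fitted SE. The procedure was tested on simulated data with 50 genes changed at each size. It called 8% of them at 1.2-fold, 74% at 1.5-fold, 92% at 2-fold and 100% at 4-fold. Changes of 1.2-fold would thus mostly be missed. Floors cover counting error only. Alternatives were other scalings, filters, DESeq2 1.42.0, limma-voom (limma 3.58.1), log2(FPKM + 0.1 or 1) and left-out libraries. Reads that a gene shares with a close paralog are divided by the estimation. The receptors and lists were chosen with earlier results of these data known. All members are named, Nr1d1 and Nr1d2 as the targeted genes, and the 2 most abundant genes of each list. Gene positions and promoters are those of RefSeq (GRCm38.p6).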

Additional observations from a re-analysis of the deposited data

How the results depend on the processing

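The count of 0 passing among the 38 listed nuclear receptors held under all 15 alternatives, with a lowest adjusted p of 0.199 (edgeR). Over all genes, DESeq2 called 67 higher and 37 lower; without V replicate 3 and r1r2V replicate 5 (chosen after seeing the data) edgeR called 23 and 8; leaving out 1 library gave 19 to 52 higher and 7 to 24 lower, with 20 and 7, 20 and 8, and 19 and 7 without V replicates 2, 3 and 4. List members called were 2 with DESeq2 and 0 to 1 with a library left out (Cdkn1a without r1r2V replicate 4, Ttr without r1r2V replicate 5). Nr1d2 passed under 4 alternatives and ran from an adjusted p of 3.84e-05 to 0.373 over all 15: it was 3.84e-05 with DESeq2, 0.0267 with no filter, 0.0449 without r1r2V replicate 4 and 0.0311 without r1r2V replicate 5. The sign of the log2 fold change held throughout for 16 receptors and turned somewhere for 13. Without V replicate 3 and r1r2V replicate 5, Rara was at 0.016, Ppara at 0.065, Nr2f6 at 0.031, Nr1h2 at -0.174 and Rxrg at 0.102. Leaving out 1 library gave -0.186 to -0.046 for Rara, -0.296 to -0.033 for Ppara, -0.126 to 0.055 for Rarg, -0.168 to 0.015 for Nr1h2, -0.08 to 0.938 for Vdr, -0.022 to 0.065 for Rxrg, -0.062 to 0.024 for Nr2f2, -0.156 to 0.006 for Nr2f6, -0.238 to 0.82 for Esr1, -0.167 to 0.11 for Esrrg, -0.001 to 0.091 for Nr3c1, -2.616 to 1.08 for Nr5a1 and -0.324 to 2.264 for Nr0b1. Nr0b1 and Vdr had no value under the filter of at least 1 CPM in 3 libraries, nor Vdr without V replicate 3 and r1r2V replicate 5, since they did not pass those filters. The causes were not tested. List medians with 1 library left out ran from 0.016 to 0.257 for retinoid handling (-0.003 without V replicate 3 and r1r2V replicate 5), 0.028 to 0.231 for retinoic acid targets, 0.112 to 0.227 for chaperones, 0.049 to 0.092 for coactivators, -0.035 to 0.028 for corepressors, 0.053 to 0.142 for glucocorticoid targets, -0.02 to 0.051 for steroid metabolism, -0.054 to 0.027 for LXR targets, -0.02 to 0.053 for PPAR and ERR targets and -0.034 to 0.148 for estrogen and progesterone targets. No paired analysis was possible because replicate 4 is the only number found in both groups. Low counts limit Esr2, Esrrb, Nr5a2, Nr0b1, Vdr and the 9 untested receptors.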

Other observations

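Genes that ranked the 6 libraries in the same order as a receptor were listed after the values were seen, among the 13873 genes that averaged 1 CPM or more, as a description with no test. In the order of Esr1 there were 36 (0.26%), 9 of them with at least a 2-fold range, among them Skor2 (0.0583 to 2.30 CPM), the transcription factor gene Eomes (0.991 to 7.35 CPM), the bombesin-like receptor gene Brs3 (4.37 to 23.3 CPM), Gal, and the neuropeptide Y receptor gene Npy2r (24.8 to 58.5 CPM). In the order of Nr5a1 there were 24 (0.173%), 7 of them with at least a 2-fold range, among them the potassium channel gene Kcnh3 (0.402 to 2.37 CPM), Nr5a2, and the somatostatin gene Sst (126 to 288 CPM). All these genes share the same 6 libraries and depths. How many genes would share such an order by chance was not worked out, so no link is drawn from these counts.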
